A study of Mus musculus with 2 samples.

Results

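The 10 genes described here are parts of the circadian clock and targets of the nuclear receptors Rev-erb alpha and beta: Dbp, Tef, Per1, Per2, Per3, Nr1d1, Nr1d2, Arntl, Cry1 and Ciart. They were taken by symbol from the 31053 genes listed in the files, and all 10 were found. Levels were described across the cell classes of the injured mouse spinal cord, and the question asked was whether an HDAC3 inhibitor library (HDAC3i) and a vehicle library differed alike in each class. The genes were chosen by their HDAC3i and vehicle values in an earlier reading of these 2 libraries, so every ratio below is a description with no test.

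Each group was 1 library of cells from mouse spinal cord taken 5 days after injury, made with the 10x Genomics 3' version 3 kit, which counts each captured transcript molecule once by its unique molecular identifier (UMI). The cord had been treated with HDAC3i for the first library and with vehicle for the second. The labels name neither the compound, the strain, the age, the number of animals behind a library nor the hour of collection. Clock transcripts cycle over the day, so treatment, animal and hour of collection cannot be told apart in these data.

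The clock is a loop of transcription factors. BMAL1, made by Arntl, pairs with CLOCK and binds E-box sequences of its target genes. The targets include the Per and Cry genes and Ciart, whose proteins inhibit BMAL1-CLOCK, and Dbp and Tef, which are transcription factors that bind D-box sequences. Nr1d1 and Nr1d2 encode Rev-erb alpha and beta, receptors that bind haem and repress genes such as Arntl and Cry1 by recruiting the NCoR corepressor with its enzyme HDAC3. Per1 also responds within minutes to hours to cAMP, calcium and glucocorticoids. The 8 genes other than Arntl and Cry1 are called the output arm below, and Arntl and Cry1 the repressed arm.

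After filtering, 2954 HDAC3i cells with 37774673 UMIs and 2164 vehicle cells with 28991181 UMIs remained, with medians of 9701.5 and 10245 UMIs per cell. The libraries shared 10 cell barcodes, 4 of them among the kept cells. Clusters, built without the 10 genes and without other clock genes, were named from marker genes, so each class name stands for cells that carry those markers. Of 29 clusters, 25 took a name and fell into 14 classes, none of them neuronal, and the 4 unnamed clusters held 6.77% and 4.39% of the cells. Classes were compared if both libraries held at least 20 of their cells, which left 12. Their median depth ran from 2858 and 3269 UMIs per cell in Schwann-like cells to 23852 and 26030.5 in monocyte/macrophage-like cells. Levels are UMIs of a gene per 1000000 UMIs of the class (CPM), given in pairs in the order HDAC3i, vehicle. Ratios are HDAC3i over vehicle with a 95% interval for counting error alone, which says nothing of the spread between animals. A ratio was computed where a gene had at least 20 UMIs over both libraries in the class.

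Promoters of 9 of the 10 genes were matched in RefSeq (GRCm38.p6), each covering 250 bases before and 50 after an annotated start, 12 promoters in all; Per2 was not matched. They were searched on both strands for the E-box CACGTG, held by 7.15% of 32851 promoters, and the D-box TTANGTAA (2.32%). The search also took TNGGTCA (10.96%), a loose form of the Rev-erb and ROR core, and the cAMP response element TGACGTCA (1.79%). An E-box lay in 5 of the 12 promoters, those of Tef (both), Per1, Ciart and Cry1, and Ciart held 3, at 116, 58 and 44 bases before its start. Promoters with the D-box numbered 1, that of Per3, which had it at 205 and 158 bases before the start. A match to TNGGTCA, with N any base and binding not tested, was in 4, including both Arntl promoters. The cAMP response element was in none, and the matches did not overlap one another. Dbp, the gene with class pairs whose ratio intervals lay apart, held none of these motifs in its promoter. Per3 held the D-box and a TNGGTCA match, Per1 the E-box and Arntl TNGGTCA matches alone. Promoters of these genes are printed below. They lie at chr7:45704997-45705296 on the plus strand (Dbp), chr4:151044616-151044915 on the minus strand (Per3), chr11:69098699-69098998 on the plus strand (the first of 2 Per1 promoters) and chr7:113207261-113207560 on the plus strand (the second of 2 Arntl promoters). Capitals mark the D-boxes and a reverse-strand TNGGTCA match in Per3, the E-box in Per1 and the TNGGTCA matches in Arntl.
Dbp: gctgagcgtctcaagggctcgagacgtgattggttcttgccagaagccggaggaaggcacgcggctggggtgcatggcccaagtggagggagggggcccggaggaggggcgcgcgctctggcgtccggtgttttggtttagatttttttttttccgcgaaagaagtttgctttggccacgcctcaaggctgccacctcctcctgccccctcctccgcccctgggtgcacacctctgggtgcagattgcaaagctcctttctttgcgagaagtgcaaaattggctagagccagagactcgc
Per3: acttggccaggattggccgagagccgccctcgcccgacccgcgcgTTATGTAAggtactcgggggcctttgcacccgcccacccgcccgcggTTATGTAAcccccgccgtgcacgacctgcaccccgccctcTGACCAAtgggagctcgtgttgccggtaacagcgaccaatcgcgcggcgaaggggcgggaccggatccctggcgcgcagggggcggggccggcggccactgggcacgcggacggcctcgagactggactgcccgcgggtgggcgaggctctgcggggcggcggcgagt
Per1: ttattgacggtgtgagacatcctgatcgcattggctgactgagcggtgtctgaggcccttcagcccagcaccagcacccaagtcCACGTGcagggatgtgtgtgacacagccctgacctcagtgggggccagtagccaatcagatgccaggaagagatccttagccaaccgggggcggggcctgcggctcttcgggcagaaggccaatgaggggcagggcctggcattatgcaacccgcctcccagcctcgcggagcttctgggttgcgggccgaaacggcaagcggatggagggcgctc
Arntl: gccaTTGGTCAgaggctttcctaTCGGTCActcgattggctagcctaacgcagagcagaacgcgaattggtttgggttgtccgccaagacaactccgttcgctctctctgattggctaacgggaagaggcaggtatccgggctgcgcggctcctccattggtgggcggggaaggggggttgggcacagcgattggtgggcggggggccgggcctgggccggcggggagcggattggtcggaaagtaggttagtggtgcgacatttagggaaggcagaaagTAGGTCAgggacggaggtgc

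Dbp, the D-box transcription factor whose gene is a direct BMAL1-CLOCK target, was highest in mural-like cells, the pericytes and smooth muscle of vessels. They held 299 and 281 CPM. Ependymal-like cells, the lining of the central canal, had 139 and 62.8 CPM, fibroblast-like cells 112 and 53.2, and endothelial-like cells 69.2 and 59.6. Schwann-like cells followed with 66.3 and 41.3 CPM, oligodendrocyte progenitor-like cells with 48.7 and 17.9, and oligodendrocyte-like cells with 26.7 and 22.6. The macrophage lineages were low. Microglia-like cells had 13.8 and 15.02 CPM, border-associated macrophage-like cells 11.2 and 12.3, and monocyte/macrophage-like cells 6.87 and 8.78. In each library, neutrophil-like cells held 2 Dbp UMIs, 1.75 and 1.14 CPM. The mural level lay above every other class in both libraries. Of the 11 steps between neighbours in this order, that from mural to ependymal was the step whose counting intervals were apart in both libraries. Those from fibroblast to endothelial and from oligodendrocyte to microglia were apart in HDAC3i only. At the other steps the intervals overlapped, which does not show that the levels were equal. Astrocyte-like cells, with 31 and 15 cells, had 143 and 75.8 CPM from 28 and 6 UMIs.

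Free RNA in droplets could lend UMIs to any class. Neutrophil-like cells set a mark for it: 1.14% (exact Clopper-Pearson interval 0.138 to 4.04) and 0.939% (0.114 to 3.35) of them held a Dbp UMI, at median depths of 4076.5 and 6802 UMIs. Mural-like cells, at 5181 and 6269 UMIs, held one in 66.2% (57.5 to 74.1) and 63.2% (52.2 to 73.3).

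Tef, a close relative of Dbp, had another order. Its highest level among the compared classes was in oligodendrocyte progenitor-like cells, with 82.3 and 52.1 CPM. Oligodendrocyte-like, Schwann-like, mural-like and fibroblast-like cells followed, all between 33.1 and 45.5 CPM. Astrocyte-like cells, too few to be compared, had 61.3 and 50.5 CPM from 12 and 4 UMIs. Endothelial-like cells had 23.4 and 27.9 CPM and microglia-like cells 14.8 and 17.9, without overlap of their intervals in either library. No Tef UMI was counted in neutrophil-like cells, which leaves room for 2.62 and 1.72 CPM (3 UMIs in each library).

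The Rev-erb genes had class orders close to that of Dbp. Nr1d1 had 144 and 126 CPM in mural-like cells, 58.0 and 55.2 in endothelial-like cells and 45.7 and 35.1 in ependymal-like cells. Astrocyte-like cells, too few to be compared, had 107 and 101 CPM from 21 and 8 UMIs. Nr1d1 was at 9.67 and 6.22 CPM in microglia-like cells, 2.63 and 1.79 in oligodendrocyte-like cells and 2.24 and 2.07 in monocyte/macrophage-like cells. In B cell-like cells no Nr1d1 UMI was counted, which leaves room for 23.8 and 13.1 CPM, and neutrophil-like cells held 0 and 1 UMI. Nr1d2 was highest in mural-like cells too, at 71.3 and 72.2 CPM, but its range was narrower. Endothelial-like cells had 40.1 and 39.8 CPM, oligodendrocyte-like cells 20.4 and 17.3, microglia-like cells 22.95 and 19.27 and monocyte/macrophage-like cells 10.4 and 11.9. Oligodendrocyte-like cells thus held little Nr1d1 beside a middle level of Nr1d2.

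**Figure D1:**
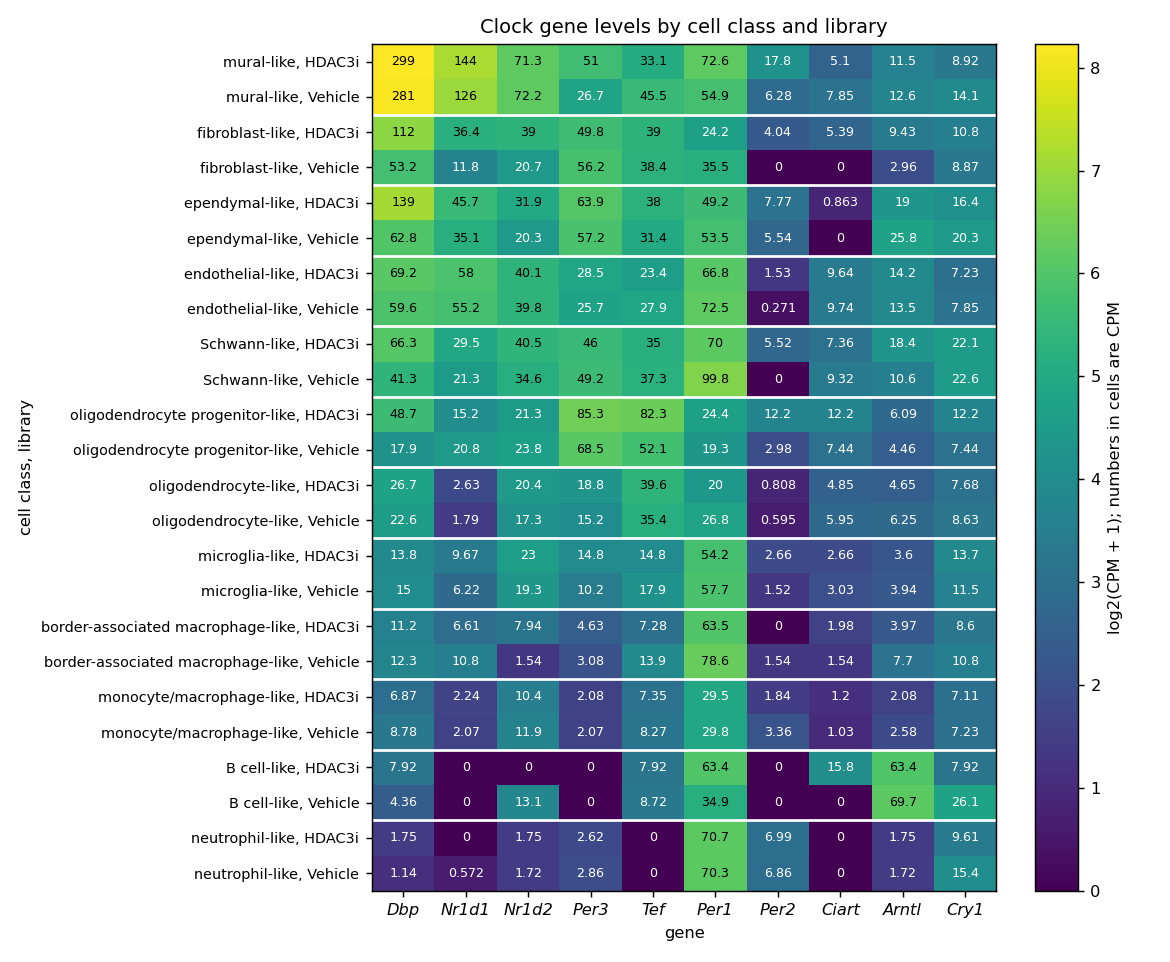
Levels of the 10 genes (columns) in the 12 compared classes, with the HDAC3i library above the vehicle library in each pair of rows; colour is log2(CPM + 1) and the number in each field is the CPM. Dbp, Nr1d1 and Nr1d2 are highest in mural-like cells and near 0 in neutrophil-like cells, where Per1 stands at 70.7 and 70.3 CPM.

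The 3 Period genes, whose proteins inhibit BMAL1-CLOCK together with the cryptochromes, differed in where they were found. Among the compared classes, Per3 was highest in oligodendrocyte progenitor-like cells, with 85.3 and 68.5 CPM. Next were ependymal-like (63.9 and 57.2), fibroblast-like (49.8 and 56.2) and Schwann-like cells (46.0 and 49.2). Astrocyte-like cells, too few to be compared, had 97.0 and 63.1 CPM from 19 and 5 UMIs. The Per3 level in monocyte/macrophage-like cells was 2.08 and 2.07 CPM. All 41014 bases of Per3 lie within Camta1 on the same strand, and the sources used here do not give how reads in both genes were assigned, which makes Per3 levels uncertain. Per1 was found in every class and was not ordered as Dbp was. Schwann-like cells had 70.0 and 99.8 CPM, neutrophil-like cells 70.7 and 70.3, endothelial-like cells 66.8 and 72.5, border-associated macrophage-like cells 63.5 and 78.6 and microglia-like cells 54.2 and 57.7. The lowest Per1 levels were in oligodendrocyte-like cells, with 19.997 and 26.8 CPM, and in oligodendrocyte progenitor-like cells, with 24.4 and 19.3. No step between neighbours in the Per1 order was free of overlap in both libraries. Per2 was scarce, with 102 and 64 UMIs in all kept cells. It was at 17.8 and 6.28 CPM in mural-like cells, 6.99 and 6.86 in neutrophil-like cells and at most 12.2 in each other compared class. Astrocyte-like cells had 30.6 and 25.3 CPM of Per2 from 6 and 2 UMIs.

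Ciart, which encodes a repressor of BMAL1-CLOCK, had 163 and 125 UMIs in all and was at 9.64 and 9.74 CPM in endothelial-like cells. An antisense gene overlaps it along its whole length of 3749 bases. Of the repressed arm, Arntl was highest in B cell-like cells, at 63.4 and 69.7 CPM from 8 and 16 UMIs, followed by ependymal-like cells at 18.98 and 25.8. Microglia-like cells had 3.60 and 3.94 CPM of Arntl and monocyte/macrophage-like cells 2.08 and 2.58. Cry1 ran from 7.11 and 7.23 CPM in monocyte/macrophage-like cells to 22.1 and 22.6 in Schwann-like cells, and was at 7.92 and 26.1 in B cell-like cells, from 1 and 6 UMIs. The order of classes was close to the same in both libraries for Dbp and Per3 (Spearman's rho 0.979 over 12 classes, for both genes) and for Nr1d1 (0.963), and least so for Ciart (0.431) and Cry1 (0.497).

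Over the 24 points of 12 classes in 2 libraries, log2(CPM + 5) of Dbp correlated with that of Nr1d1 at r = 0.920, Nr1d2 at 0.855, Per3 at 0.784 and Tef at 0.769. Dbp correlated with Per1 at 0.0548 and with Arntl at 0.228. The points share 2 libraries and differ in depth, and the correlation with the log2 median UMIs per cell was -0.607 for Per1, -0.610 for Arntl, -0.608 for Cry1 and -0.189 for Dbp. Among 13060 genes with at least 100 UMIs, the pattern most like that of Dbp was that of Pkd1 (r = 0.966), followed by Zc2hc1a (0.952) and Klhdc8b (0.931). For Nr1d1 these were Tnks1bp1 (0.924), Nrep (0.923) and Klhdc8b (0.915), and for Nr1d2 Smug1 (0.938), Sac3d1 (0.928) and Cgrrf1 (0.924). The genes most like Per1 were Txnip (0.792), Klf2 (0.779) and Btg2 (0.763), of which the latter pair are immediate-early genes.

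Clusters within a class differed as well. The mural cluster led by Vtn, Rgs5, Higd1b and Kcnj8, genes of pericytes, had 399 (343 to 461) and 386 (325 to 454) CPM of Dbp. The mural cluster led by Acta2, Tagln and Myh11, genes of smooth muscle, had 156 (116 to 205) and 138 (96.9 to 190). Nr1d1 stood at 190 and 163 CPM in the pericyte-gene cluster and at 77.9 and 74.4 in the other. Both genes were thus higher in the pericyte-gene cluster in each library, with no overlap of the intervals. Among neutrophil-like cells, Per1 had 155 (119 to 199) and 145 (115 to 182) CPM in the cluster with Retnlg, Mmp8 and Mmp9 on top, genes of mature neutrophils. The cluster with the granule genes Ngp, Camp and Ltf had 25.5 (15.3 to 39.8) and 37.7 (27.6 to 50.3). Klk6-rich oligodendrocyte-like cells had 39.0 (29.6 to 50.4) and 35.1 (24.1 to 49.2) CPM of Per3, and the larger cluster with Ptgds and Car2 on top had 10.1 (7.03 to 14.2) and 7.51 (4.45 to 11.9). In microglia-like cells, Per1 was at 59.1 and 66.6 CPM in the cluster with Ccl4, Il1a and Il1b on top and at 30.8 and 20.4 in the cluster with Spp1, Igf1 and Apoc1, again without overlap in either library.

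**Figure D2:**
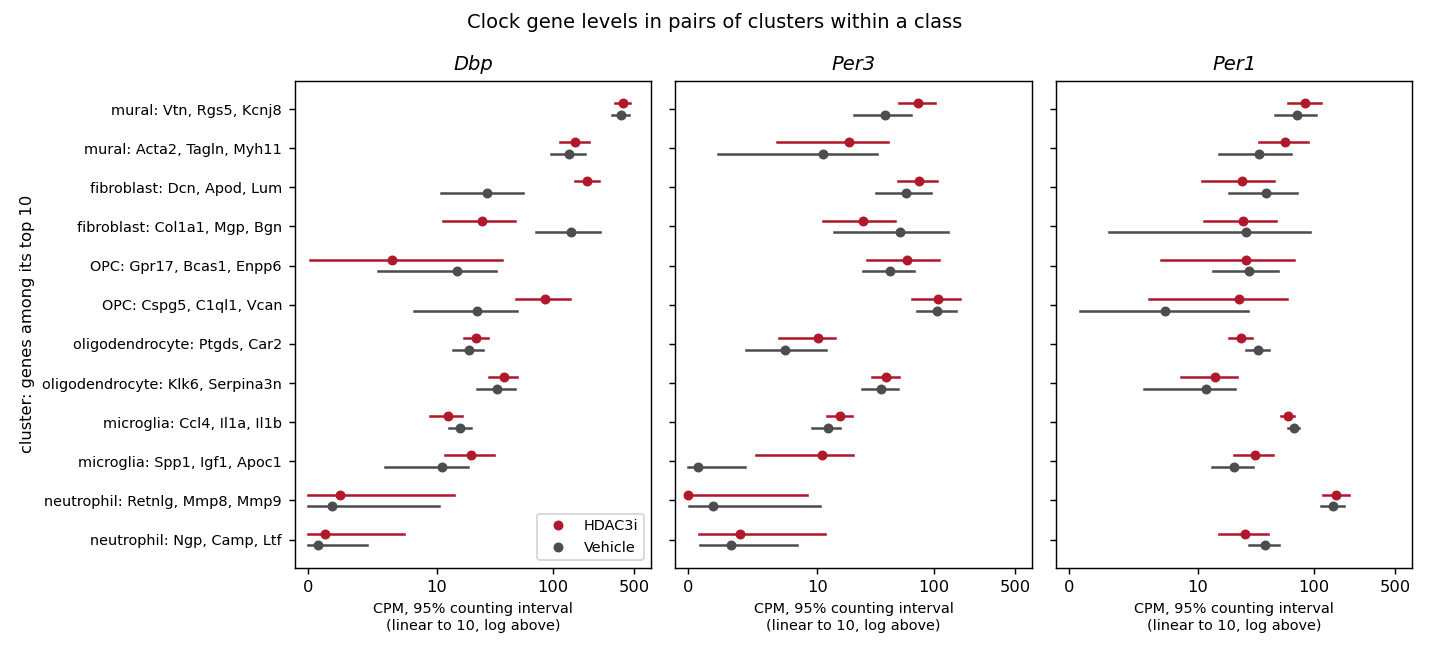
CPM of Dbp, Per3 and Per1 (x axes, linear to 10 and log above) in pairs of clusters of 6 classes, each named by genes among its top 10; OPC is oligodendrocyte progenitor, points are libraries and bars the 95% counting interval. The 2 mural clusters differ in Dbp and the 2 neutrophil clusters in Per1 in both libraries. In the fibroblast pair the libraries go opposite ways for Dbp, but most fibroblast Dbp UMIs in vehicle came from a single cell. The OPC points do so too, but from UMIs too few to set a direction.

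Between the libraries, the sums over all kept cells differed little. Dbp was at 35.1 and 28.1 CPM, a ratio of 1.25 (1.14 to 1.36), and Per1 at 43.8 and 49.1, a ratio of 0.891 (0.830 to 0.958). None of the 10 genes was past 1.5-fold in either direction, where 11.5% of the 15841 genes with at least 20 UMIs were. These sums also mix classes in different shares: mural-like cells were 4.502% and 4.02% of the libraries and microglia-like cells 15.5% and 22.3%. Class by class, 77 ratios of the 10 genes could be computed. They split into 39 above 1 and 38 below, and 11 were at least 1.5-fold higher and 3 at least 1.5-fold lower in HDAC3i. These are 14.3% and 3.90% of the ratios, beside 8.05% and 7.52% of all genes in the same classes, each class counted as often as it had one of the 10 genes. In either direction the shares were 18.2% and 15.6%. Past 1.5-fold in either direction were 2 of 10 genes in microglia-like (8.54% of all genes), 1 of 10 in monocyte/macrophage-like (9.55%), 0 of 9 in endothelial-like (8.58%) and 0 of 8 in oligodendrocyte-like cells (9.38%). In the smaller classes, whose background is higher, they were 1 of 7 in Schwann-like (19.4%), 1 of 3 in neutrophil-like (21.1%), 2 of 8 in ependymal-like (17.7%), 3 of 6 in fibroblast-like (27.3%) and 1 of 6 in mural-like cells (18.6%). The rest were 2 of 5 in oligodendrocyte progenitor-like (25.4%), 1 of 4 in border-associated macrophage-like (22.6%) and 0 of 1 in B cell-like cells (32.3%).

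The libraries did not differ alike for Dbp. In ependymal-like cells, Dbp had 161 and 34 UMIs, 139 (118 to 162) and 62.8 (43.5 to 87.7) CPM, a ratio of 2.21 (1.52 to 3.31). In this class 2 of 8 measured genes were past 1.5-fold and higher, Dbp and Nr1d2, beside 9.51% of all genes; with at least 100 UMIs required, 3.81% of all genes were past 1.5-fold in either direction there. The 6 class pairs whose Dbp intervals were apart set the ependymal ratio against the endothelial (1.16, 0.975 to 1.39), microglia (0.922, 0.672 to 1.26), monocyte/macrophage (0.782, 0.563 to 1.09) and mural (1.07, 0.873 to 1.302) ratios, and the fibroblast and progenitor ratios against the monocyte/macrophage ratio. The mural class, which had the most Dbp, was thus about level between the libraries. Of the 45 class pairs compared for Dbp, the other 39 overlapped, and no pair was apart for any of the other 9 genes. Ependymal-like cells were a single cluster, and no cell held more than 4.35% and 8.82% of their Dbp UMIs. The log2 ratio stayed between 0.908 and 1.203 under 9 alternative settings. Some of these settings, such as the largest cluster alone, kept the same cells and could not move it. With each cell thinned to 2000 UMIs, 20.1% (14.6 to 26.6) and 10.8% (4.78 to 20.2) of ependymal-like cells held a Dbp UMI, with overlapping intervals; unthinned, the shares were 46.2% and 35.1%. An Nr1d2 UMI was held by 7.61% (4.22 to 12.4) and 1.35% (0.0342 to 7.30) of thinned ependymal-like cells, from 14 and 1 cells. Over 9 settings the Nr1d2 log2 ratio there ran from 0.302 to 2.59. Before thinning, other clock genes in ependymal-like cells were closer to level. Per3 had a ratio of 1.12 (0.724 to 1.76), Nr1d1 of 1.304 (0.759 to 2.33), Nr1d2 of 1.57 (0.785 to 3.42), Tef of 1.21 (0.677 to 2.26) and Per1 of 0.919 (0.578 to 1.49).

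The high Dbp ratio of fibroblast-like cells, 2.10 (1.25 to 3.72), was reversed in the smaller cluster of this class, which held few cells. That of oligodendrocyte progenitor-like cells, 2.73 (1.21 to 6.32), rests on clusters with few UMIs. In the fibroblast cluster with Dcn, Apod and Lum on top (35 and 22 cells), Dbp had 196 and 26.9 CPM, a ratio of 7.32 (3.38 to 18.8). In the fibroblast cluster with Col1a1, Mgp and Bgn on top (23 and 5 cells), it had 24.6 and 142 CPM, a ratio of 0.174 (0.0636 to 0.461). In the vehicle library 61.1% of the fibroblast Dbp UMIs came from a single cell. That cell could by itself account for the 142 CPM of the 5-cell cluster, which therefore sets no direction. Of the progenitor clusters, that with Cspg5 and C1ql1 on top had 85.5 and 22.4 CPM from 15 and 6 UMIs. The cluster with Gpr17 and Bcas1, genes of committed precursors, had 6.55 and 14.9 CPM from 1 and 6 UMIs, too few to set a direction. It held 40.0% of the HDAC3i progenitor-like cells and 60.0% of the vehicle ones. Of all genes, 15.6% in fibroblast-like and 13.5% in progenitor-like cells were past 1.5-fold and higher, beside 3 of 6 and 2 of 5 of the clock genes.

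In the remaining classes Dbp ratios held 1: Schwann-like 1.61 (0.966 to 2.69), where 8.94% of all genes were past 1.5-fold and higher, oligodendrocyte-like 1.18 (0.882 to 1.58) and border-associated macrophage-like 0.912 (0.373 to 2.44). Dbp ratios were below 1 in the 3 microglia and macrophage classes and above 1 in the other 7 classes measured.

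**Figure D3:**
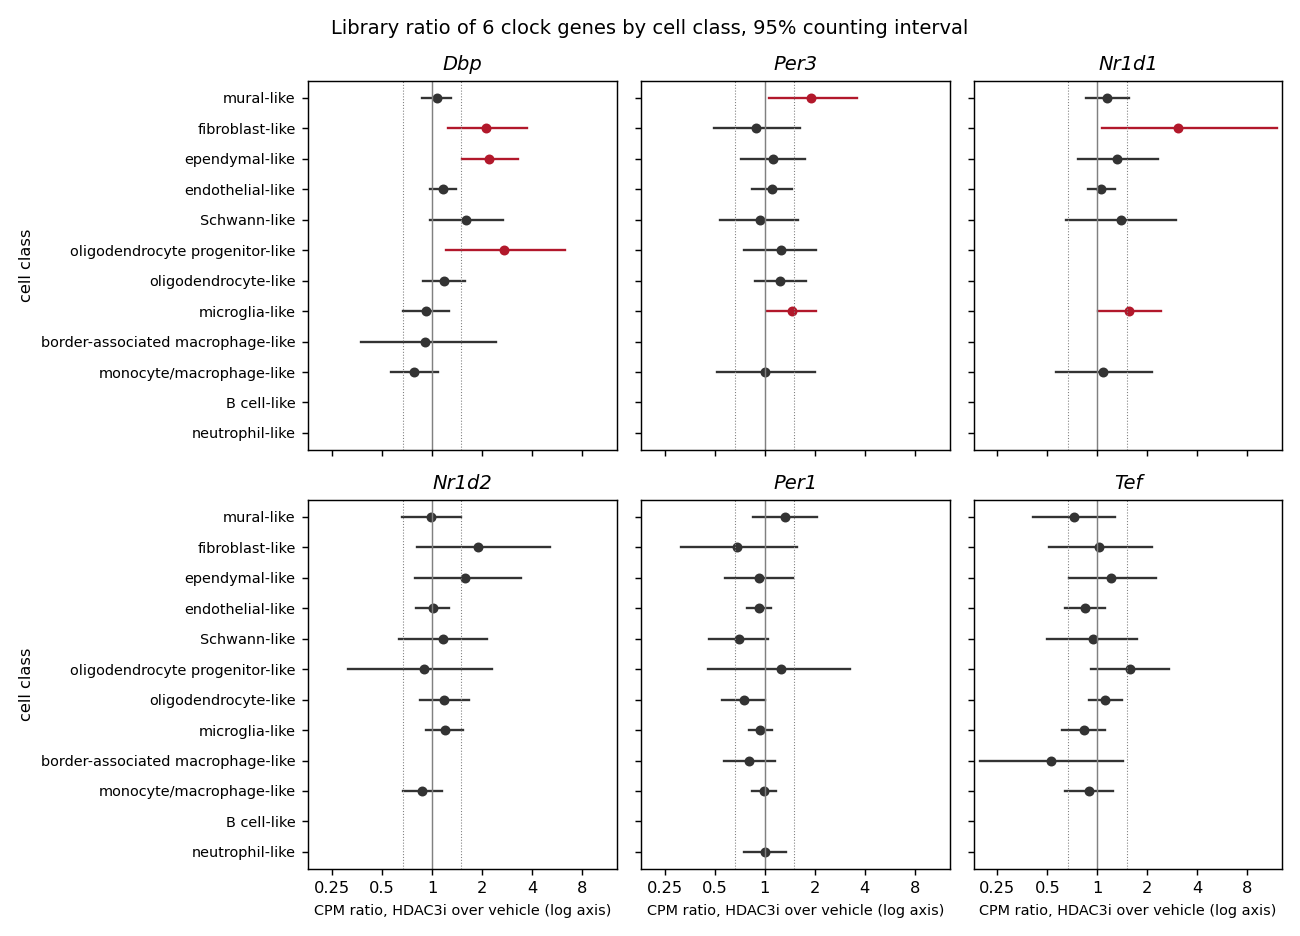
CPM ratio of HDAC3i over vehicle (log x axis) for 6 genes in each class with at least 20 UMIs of the gene; bars are 95% counting intervals, red where the interval leaves out 1, the solid line marks 1 and the dotted lines 1.5-fold. Dbp spreads from 0.782 in monocyte/macrophage-like to 2.73 in oligodendrocyte progenitor-like cells, while all Per1 intervals overlap each other.

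The other output genes showed smaller spreads. Nr1d1 was above 1 in 7 of the 7 classes measured, from 1.05 (0.872 to 1.27) in endothelial-like to 3.08 (1.07 to 12.1) in fibroblast-like cells, the latter from 27 and 4 UMIs. In endothelial-like cells it was under 1 in 3 of 9 other settings, to a log2 ratio of -0.41, and in monocyte/macrophage-like cells in 2 of 8, to -0.93. Below the 20-UMI minimum it was at 0.731 in oligodendrocyte progenitor-like cells, from 5 and 14 UMIs, and at 0.613 in border-associated macrophage-like cells, from 10 and 7. In microglia-like cells, with 51 and 41 UMIs, the Nr1d1 ratio was 1.56 (1.01 to 2.41), and Nr1d1 and Per2 were the 2 of 10 genes past 1.5-fold and higher there, beside 3.96% of all genes. Over 9 other settings the Nr1d1 log2 ratio there went from 0.75 down to 0.071. With cells thinned to 2000 UMIs, 1.60% (0.645 to 3.27) and 1.52% (0.614 to 3.11) of microglia-like cells held an Nr1d1 UMI. Cells of the unnamed clusters had 27.3 and 34.2 CPM of Nr1d1, a ratio of 0.797 (0.576 to 1.11). Nr1d2 ran from 0.874 (0.664 to 1.15) in monocyte/macrophage-like to 1.89 (0.809 to 5.10) in fibroblast-like cells, and its 9 intervals held 1. With cells thinned to 2000 UMIs, however, 4.20% (2.46 to 6.64) and 12.5% (8.97 to 16.7) of endothelial-like cells held an Nr1d2 UMI, from 17 and 38 cells, and the log2 ratio moved from 0.011 to -1.53. Per3 was at 51.0 and 26.7 CPM in mural-like cells, a ratio of 1.91 (1.06 to 3.59) from 40 and 17 UMIs, where it was the 1 of 6 genes past 1.5-fold and 8.71% of all genes were past it and higher. In microglia-like cells Per3 had a ratio of 1.46 (1.04 to 2.05).

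Tef was past 1.5-fold in 2 of 10 classes, at 1.58 (0.919 to 2.69) in oligodendrocyte progenitor-like and 0.525 (0.198 to 1.43) in border-associated macrophage-like cells, where 9.40% of all genes were past 1.5-fold and lower. Per2 had a ratio of 1.75 (0.723 to 4.40) in microglia-like cells and 0.547 (0.298 to 0.998) in monocyte/macrophage-like cells, from 23 and 26 UMIs, where 5.30% of all genes were past 1.5-fold and lower. Ciart ran from 0.814 to 1.16 in 4 classes. Arntl, the main Rev-erb target within the loop, was below 1 in 5 of 6 classes, from 0.734 (0.359 to 1.55) in ependymal-like to 1.05 (0.716 to 1.55) in endothelial-like cells. Cry1 was below 1 in 7 of 8 classes and past 1.5-fold in neutrophil-like cells, at 0.622 (0.279 to 1.296) from 11 and 27 UMIs, where 7.52% of all genes were past it and lower. All Arntl and Cry1 intervals held 1.

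Summed over the 8 output genes, the HDAC3i library was higher in ependymal-like cells, at 376 and 266 CPM, a ratio of 1.42 (1.17 to 1.72), in fibroblast-like cells, at 1.44 (1.10 to 1.89), and in oligodendrocyte progenitor-like cells, at 1.42 (1.09 to 1.84). The progenitor sum turned from a log2 ratio of 0.50 to -0.41 in the largest cluster alone and to -0.36 with thinned cells. It was close to level where the counts were largest: 1.02 (0.943 to 1.11) in endothelial-like cells from 1357 and 1074 UMIs, 1.04 (0.938 to 1.15) in microglia-like cells from 715 and 862, 1.06 (0.941 to 1.21) in oligodendrocyte-like and 0.913 (0.816 to 1.02) in monocyte/macrophage-like cells. Without Per1 and Dbp, both left out after their values were seen, the ependymal ratio was 1.26 (0.970 to 1.64) and the fibroblast ratio 1.37 (0.961 to 1.98). The summed repressed arm held 1 in each of the 10 classes where it was compared.

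**Figure D4:**
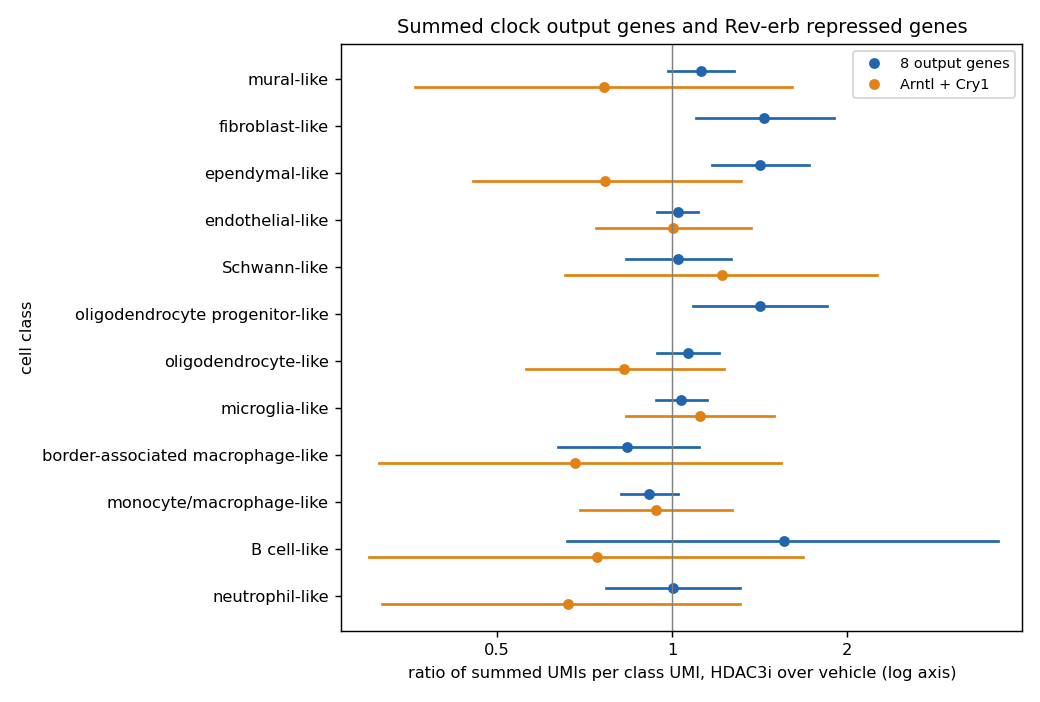
Ratio of summed UMIs per class UMI, HDAC3i over vehicle (log x axis), for the 8 output genes (blue) and for Arntl plus Cry1 (orange) in each class, with 95% counting intervals; the repressed arm is left out where it had under 20 UMIs. The output arm lies above 1 in ependymal-like, fibroblast-like and oligodendrocyte progenitor-like cells, the last not so in its largest cluster alone or with thinned cells, and all repressed arm intervals hold 1.

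Per1 stood between 0.683 (0.311 to 1.56) in fibroblast-like and 1.32 (0.853 to 2.07) in mural-like cells, below 1 in 8 of 11 classes and past 1.5-fold in none. With thinned cells its log2 ratio turned from -0.31 to 1.04 in border-associated macrophage-like cells, where 17.2% (11.1 to 24.9) and 8.33% (2.32 to 19.98) of cells then held a UMI. In mural-like cells it turned from 0.40 to -0.95, with 10.48% (5.70 to 17.3) and 17.9% (10.4 to 27.7) of cells. In oligodendrocyte-like cells it was at 0.746 (0.555 to 1.004) and in Schwann-like cells at 0.701 (0.461 to 1.05). Immediate-early genes, which are induced by cell stimulation and dissociation, and glucocorticoid-induced genes were mostly lower in Schwann-like and mostly higher in mural-like cells. In Schwann-like cells all 18 measured immediate-early genes were lower in HDAC3i, 9 of them past 1.5-fold beside 10.5% of all genes, with a median log2 ratio of -0.58 against 0.0091 over all genes. Egr1 was at a ratio of 0.637 there and Junb at 0.641. Of 6 glucocorticoid-induced genes 5 were lower, 4 of them past 1.5-fold beside the same 10.5%, with Tsc22d3 at 0.547 and Ddit4 at 0.551. In mural-like cells, where Per1 was 72.6 and 54.9 CPM, all 16 measured immediate-early genes were higher, 4 past 1.5-fold beside 8.71% of all genes, with a median log2 ratio of 0.48. Of 5 glucocorticoid-induced genes there 4 were higher, with Sgk1 at 1.94 the 1 past 1.5-fold and Ddit4 at 0.932. In endothelial-like cells 7 of 8 glucocorticoid-induced genes were higher, where 5398 of all 10635 genes were. Past 1.5-fold were 3, among them Errfi1 at 1.79 and Fkbp5 at 1.62, beside 4.3% of all genes, while Per1 was at 0.921 (0.779 to 1.09). The part of either list in the Per1 values was not tested. In fibroblast-like cells 10 of 17 immediate-early genes were higher and 7 lower, where 3257 of all 6033 genes were higher. Past 1.5-fold were 6 higher, among them Klf2 at 6.39 and Klf6 at 2.94, and 1 lower, beside 15.6% and 11.7% of all genes. In ependymal-like cells 12 of 16 immediate-early genes were higher, with a median log2 ratio of 0.27, where 4312 of all 8426 genes were higher. Per1 was at 0.919 there and at 0.683 in fibroblast-like cells. The part of immediate-early genes in the Dbp ratios of these classes was not tested.

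**Figure D5:**
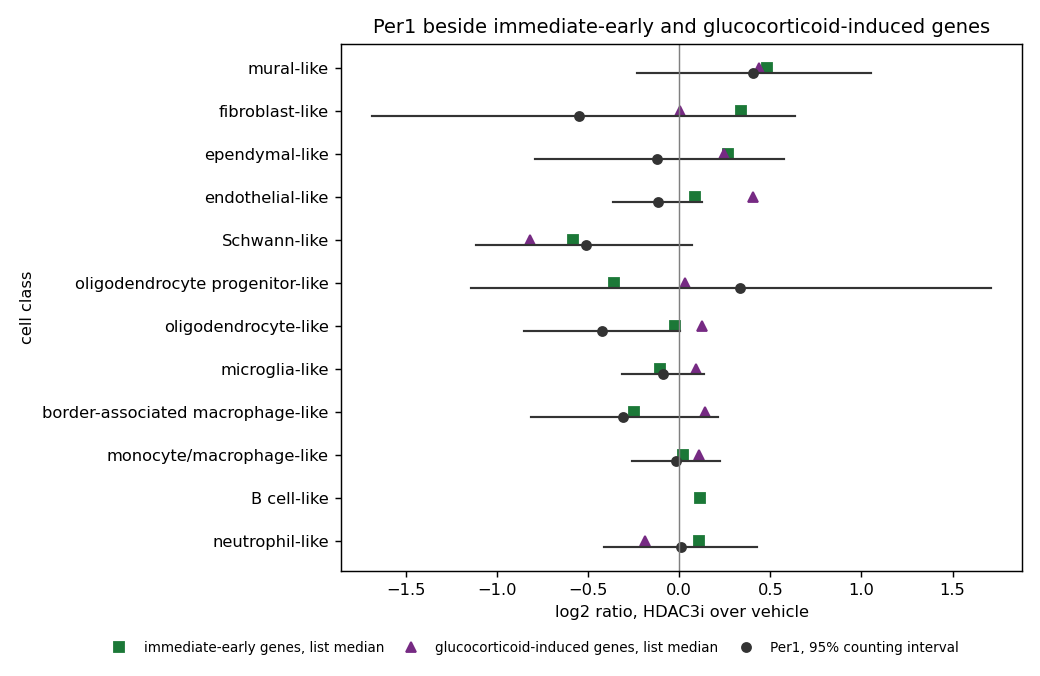
log2 ratio of HDAC3i over vehicle by class for Per1 (points, 95% counting interval) and the median of the immediate-early genes (squares) and glucocorticoid-induced genes (triangles), drawn where at least 4 genes of a list were measured. In Schwann-like cells all 3 lie below 0 and in mural-like cells all 3 lie above it, where Per1 lay at -0.95 with cells thinned to 2000 UMIs. The Per1 interval holds 0 in both classes. In no other class with Per1 drawn do all 3 lie on the same side of 0. In ependymal-like cells the lists lie at 0.27 and 0.24 and Per1 at -0.12.

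Of 19 other clock genes, those measured in microglia-like (12), monocyte/macrophage-like (13) and endothelial-like cells (12) included none past 1.5-fold, beside 8.54%, 9.55% and 8.58% of all genes in either direction. In neutrophil-like cells 3 of 6 measured were past 1.5-fold and higher, beside 13.5% of all genes. Among them Nfil3, which represses D-box genes, was at 61.1 and 33.2 CPM, a ratio of 1.84 (1.28 to 2.66). The cluster with genes of mature neutrophils was 66.5% and 51.6% of that class, and its part in the ratio was not tested. Usp2, an output gene that encodes a deubiquitinase, was at 1.69 (1.01 to 2.92) in mural-like cells. It was the 1 of 12 past 1.5-fold in either direction there, beside 18.6% of all genes. Bhlhe41, which encodes a repressor of E-box genes, was at 1.67 (0.994 to 2.95) in ependymal-like cells, the 1 of 15, beside 17.7%. In oligodendrocyte progenitor-like cells 1 of 10 was past 1.5-fold and higher and 3 were lower, beside 13.5% and 11.9% of all genes. Among the 3 were Rora, the activator that shares sites with Rev-erb, at 0.379 (0.114 to 0.999) from 5 and 27 UMIs, and Bhlhe40 at 0.366 (0.110 to 0.959) from 5 and 28. In fibroblast-like cells 3 of 11 were past 1.5-fold and higher and 1 lower, beside 15.6% and 11.7% of all genes.

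Genes outside the loop that Rev-erb is known to repress did not move one way. Of 8 measured in monocyte/macrophage-like cells, Ccl2, a chemokine that attracts monocytes, was at 81.2 and 29.7 CPM, a ratio of 2.73 (2.37 to 3.17). Lpl, a lipase, was at 1.52 (1.39 to 1.66). Lower in HDAC3i were Cx3cr1, the fractalkine receptor, at 0.511 (0.353 to 0.737), and Mmp9, a matrix protease, at 0.124 (0.0421 to 0.302) from 6 and 30 UMIs. The cluster with Plac8, Chil3 and Ly6c2 on top was 28 of the 513 and 42 of the 282 cells of this class. Of all Mmp9 UMIs, neutrophil-like cells, 5.96% and 9.84% of the libraries, held 1335 of 1388 and 2500 of 2559. The part of either in these ratios was not tested. In mural-like cells Ccl2 went the other way, at 51.0 and 512 CPM, a ratio of 0.0996 (0.0698 to 0.139), and Il6 was at 0.203 (0.0595 to 0.557). None of the 8 measured in microglia-like cells was past 1.5-fold, beside 8.54% of all genes. Hdac3 itself was at 19.1 and 21.5 CPM in all kept cells, a ratio of 0.888 (0.797 to 0.990), and none of the 6 genes of the corepressor complex was past 1.5-fold in that sum, beside 11.5% of all genes. An inhibitor acts on the enzyme, so these transcripts do not check the treatment.

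Nr1d1 overlaps Thra on the opposite strand by 1075 bases and Dbp overlaps Sphk2 on the opposite strand by 737, and the sources used here do not give whether the counting used strand. With 1 library per group there is no replicate check, and the ratios compare these libraries rather than the treatments.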

How the data were processed

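The deposited files hold whole UMI counts per barcode and gene. Cell Ranger 3.0.2 made them per the file headers, and mm10 and Seurat are also named per the submitters' processing notes. Kept barcodes had 500 genes and 1000 UMIs or more and no more than 15% mitochondrial UMIs, which 448 of 3423 HDAC3i and 353 of 2523 vehicle barcodes failed, and 21 and 6 doublets called with Scrublet (scanpy 1.11.5) were left out. After scaling to 10000 UMIs per cell and a log transform, 2000 variable genes without clock genes were reduced to 30 principal components. A graph of 20 neighbours (scikit-learn 1.9.0) was clustered with leidenalg 0.10.2 at resolution 1. Clusters were named by their best marker list, scored as the mean log2 ratio over the median cluster: the score had to reach 2.5 and exceed the next list's by 0.5, with 3 markers or more at 20 CPM or above. Clusters with top genes of another class, a cluster whose next marker list scored close, and a cluster that mixed endothelial and haemoglobin genes stayed unnamed, the last by a rule set after the clusters were seen.

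The counts were added up by library and class. Levels have exact Poisson, shares exact Clopper-Pearson and ratios exact conditional binomial intervals (scipy 1.17.1), all at 95%. The ratio code was tested on simulated data. No test was made, since each group is 1 library. All 10 genes are named, as are the 3 genes most like Dbp, Per1, Nr1d1 and Nr1d2. Of other lists, genes past 1.5-fold or most abundant are eligible, and the printed ones were picked with their values in view. The genes, lists, markers and naming thresholds were chosen with earlier results of these data known. Gene positions are from GENCODE M21 (mm10). Some withheld results are not reported here.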

Additional observations from a re-analysis of the deposited data

Results flagged for a closer look

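Dbp had a ratio of HDAC3i over vehicle of 2.73 (1.21 to 6.32) in oligodendrocyte progenitor-like cells. In monocyte/macrophage-like cells it was 0.782 (0.563 to 1.09), an interval that holds 1 and sets no direction. The 2 intervals did not overlap. This pair stands out as the widest of 6 class pairs with intervals apart. The difference between the classes was not tested, since each group is 1 library. The progenitor value rests on 16 and 12 UMIs. In its larger cluster alone HDAC3i was lower, from 1 and 6 UMIs, too few to set a direction.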

How the results depend on the processing

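No paired analysis was possible because each group is 1 library. Ratios were recomputed under 9 other settings, and the output sums also without Per1 and without Dbp, chosen after seeing the data. On the log2 scale, the output sum moved beyond its counting interval in endothelial-like cells to -0.230 with cells thinned to 2000 UMIs and to 0.153 with each cell weighted alike, and with thinned cells to -0.249 in microglia-like, 0.104 in monocyte/macrophage-like, -0.081 in mural-like and -0.36 in oligodendrocyte progenitor-like cells. In border-associated macrophage-like cells it turned from -0.26 to 0.54 with thinned cells and to 0.21 with called doublets kept. Thinning, which leaves few UMIs, moved 26 of 77 values beyond their counting interval. In the largest progenitor-like cluster alone, the log2 ratio of the output sum was -0.41, that of Dbp -1.18 and that of Tef -0.657. The fibroblast Dbp log2 ratio ranged from 0.66 to 2.87 and the ependymal output sum from 0.22 (without Dbp) to 0.80. The median log2 ratio over all genes, which median-ratio scaling sets to 0, was over 0.1 from 0 in B cell-like cells only (-0.11, so that ratios there rose by as much). The share of all genes past 1.5-fold, 8.54% to 32.3% over the 12 classes, was 2.10% to 15.1% with at least 100 UMIs and 18.0% to 52.6% with at least 1 UMI in each library. Depth limits Per2, Ciart and Arntl most, with 64 to 242 UMIs per library.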
